A study of Homo sapiens with 4 samples.

Results

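The transcripts of tRNA and rRNA modification enzymes were followed in HCT116, an established line of human colon cancer cells, with and without knockdown of ALKBH5. ALKBH5 is a demethylase that erases the m6A mark, N6-methyladenosine, on mRNA. Members were the protein-coding genes of the deposited table whose names begin with TRMT, NSUN or METTL, or with PUS or ELP followed by a digit. METTL3, METTL14, METTL16, METTL5 and TRMT10C were left out. This gave 52 of the 28391 genes in the table, of which 50 reached a value of 1 in 2 or more libraries and were tested. There were 2 libraries with a hairpin against ALKBH5 (shALKBH5) and 2 with a control hairpin (shNC), the second group carrying the genotype label WT. All cells were grown in the same medium with serum and antibiotics, and the labels give no drug treatment or time point. The labels name a single knockdown group and no rescue, so other effects of the hairpin cannot be told apart from loss of ALKBH5. No label ties the libraries of a group to separate cultures; p-values here reflect the spread between these samples alone, and that spread may be technical.

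Transfer and ribosomal RNAs are modified at many nucleotides after transcription. TRMT enzymes and several METTL enzymes methylate tRNA bases or riboses, NSUN enzymes methylate the carbon-5 of cytosine, PUS enzymes convert uridine to pseudouridine, and the Elongator complex, built from the ELP proteins, starts the side chain found on wobble uridines. These marks help tRNAs to fold, to be stable and to read codons, and rRNA marks lie near the working centres of the ribosome. The name METTL covers a fold rather than a function: METTL9, METTL13, METTL18, METTL21A, METTL22 and METTL23 methylate proteins, and METTL7A and METTL7B act on small thiol molecules, so the rule also took in genes that are not RNA modification enzymes.

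Values are the authors' read counts per gene after scaling by 1 factor per library (normalised counts), and log2 fold changes are shALKBH5 over shNC on the log2(value + 1) scale with 1 standard error. A gene passed at an adjusted p under 0.05 in limma-trend, with Benjamini-Hochberg adjustment over all 25887 genes tested. The targeted gene, ALKBH5, had normalised counts of 312.1 and 270.2 in shALKBH5, against 1905 and 1941 in shNC. Its log2 fold change was -2.72 ± 0.0812 (adjusted p in limma-trend 0.00131). The reads assigned to genes numbered from 16398604 to 17493141 per library. Of 9 epithelial and colorectal markers, 6 averaged at least 50 normalised counts, led by KRT8 at 54600. Of 5 leukocyte markers 3 were in the table, and they summed to 7.09 and 6.01 normalised counts in shALKBH5 libraries, against 13.3 and 21.5 in shNC libraries. Of 5 fibroblast markers 1, COL1A1, averaged over 50, at 880 normalised counts; COL1A2 was absent or at 0, and the list summed to 878 and 843 in shALKBH5 libraries, against 906 and 911 in shNC libraries. Of 4 endothelium markers 0 averaged 50. Of 4 hepatocyte or kidney line markers 1, PAX2, averaged over 50, at 267 normalised counts. That list summed to 284 and 292 in shALKBH5 libraries, against 315 and 349 in shNC libraries. In such bulk libraries, fewer cells of a kind and less RNA per cell cannot be told apart. Over all genes, limma-trend passed 513 as higher and 487 as lower, so that 51.3% of calls were higher. Scaling each library to the same total gave 787 higher and 1272 lower, or 38.2% higher.

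Among the 50 genes tested, 2 rose, METTL27 and METTL13, 0 fell and 48 did not pass. METTL27, a gene of the interval deleted in Williams-Beuren syndrome, rose 2.03-fold, and METTL13, a methyltransferase of the translation elongation factor eEF1A, rose 1.34-fold. The share that rose was 4% of those tested. Over all genes limma-trend passed 1.98% as higher and 1.88% as lower. Over the protein-coding genes averaging 50 or more normalised counts these shares were 4.19% and 4.12%, so the share of members called higher was near this background. At an unadjusted p under 0.05, limma-trend had 11 members higher and 1 lower, or 22% higher, against 10.7% of all genes and 18.7% of those better-expressed protein-coding genes. The 1 lower stands against 10.7% and 17.9%. Restricting limma-trend to genes averaging 50 or more raised the members called higher to 8 of 49, while 1789 of all 12540 genes in that fit were called higher. The count tool edgeR, run on whole reads recovered from the values, called 8 members higher and 0 lower, or 16%, against 10.4% of its genes called higher and 10.4% called lower. That background covers all 16473 genes edgeR kept, of any biotype. The share among the better-expressed protein-coding genes was not computed for edgeR or DESeq2, so 16% and 10.4% are not over like genes. The calls of edgeR included METTL27, METTL13, NSUN6, NSUN2, TRMT1, METTL2A and METTL2B. With any 1 library left out METTL27 and METTL13 stayed past the threshold in edgeR, while each of the other 6 missed it without at least 1 library. DESeq2 on the same reads called 3 higher, METTL27 and METTL13 among them, and 0 lower, against 6.38% of its genes called higher and 5.56% called lower.

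Most of the genes lay close to no change, with a small lean upward. The log2 fold change was above 0 for 38 of the 50 (76%), against 49.1% of all genes tested and 51.1% of the better-expressed protein-coding genes. Its median over the 50 genes was 0.10, against -0.004 over all genes tested and 0.0054 over those protein-coding genes. With equal library totals these medians were 0.07 over the 50 genes and -0.03 over all genes tested. For 41 of the 50 the size of the log2 fold change was under 0.25. In 21 members (42%) both shALKBH5 libraries lay above both shNC libraries, in 3 both lay below, and in 26 the groups overlapped. The same order, shALKBH5 above, held for 25% of all genes and 33.1% of the better-expressed protein-coding genes, and the reverse order for 25.6% and 31.4%. Summed over all 52 members, the normalised counts were 31550 and 31058 in the shALKBH5 libraries, against 28765 and 29045 in the shNC libraries. Across the 50 genes, which share the same 4 libraries, Spearman's rho of the log2 fold change was -0.15 with the length of the gene model and -0.08 with the level, given as a description.

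**Figure D1:**
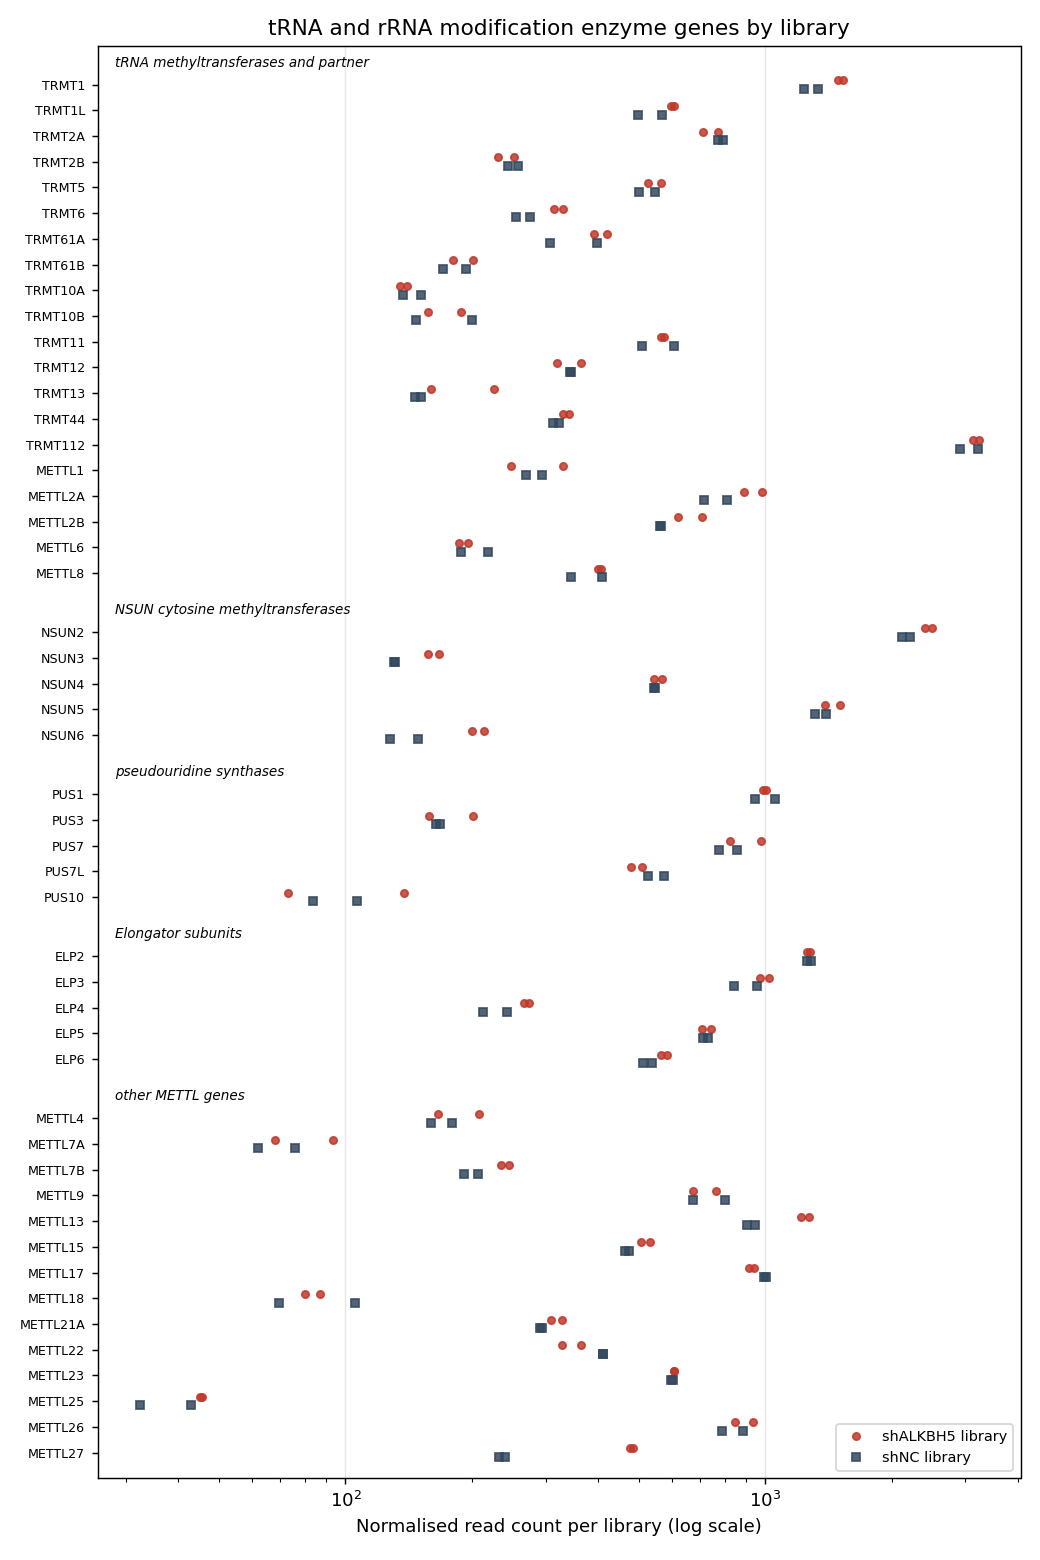
Normalised read count (horizontal, log scale) of 49 of the genes tested, by role; circles are the 2 shALKBH5 libraries, drawn above squares for the 2 shNC libraries. METTL27, near the bottom, shows the widest gap between groups, and in 26 genes the groups overlap.

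**Figure D2:**
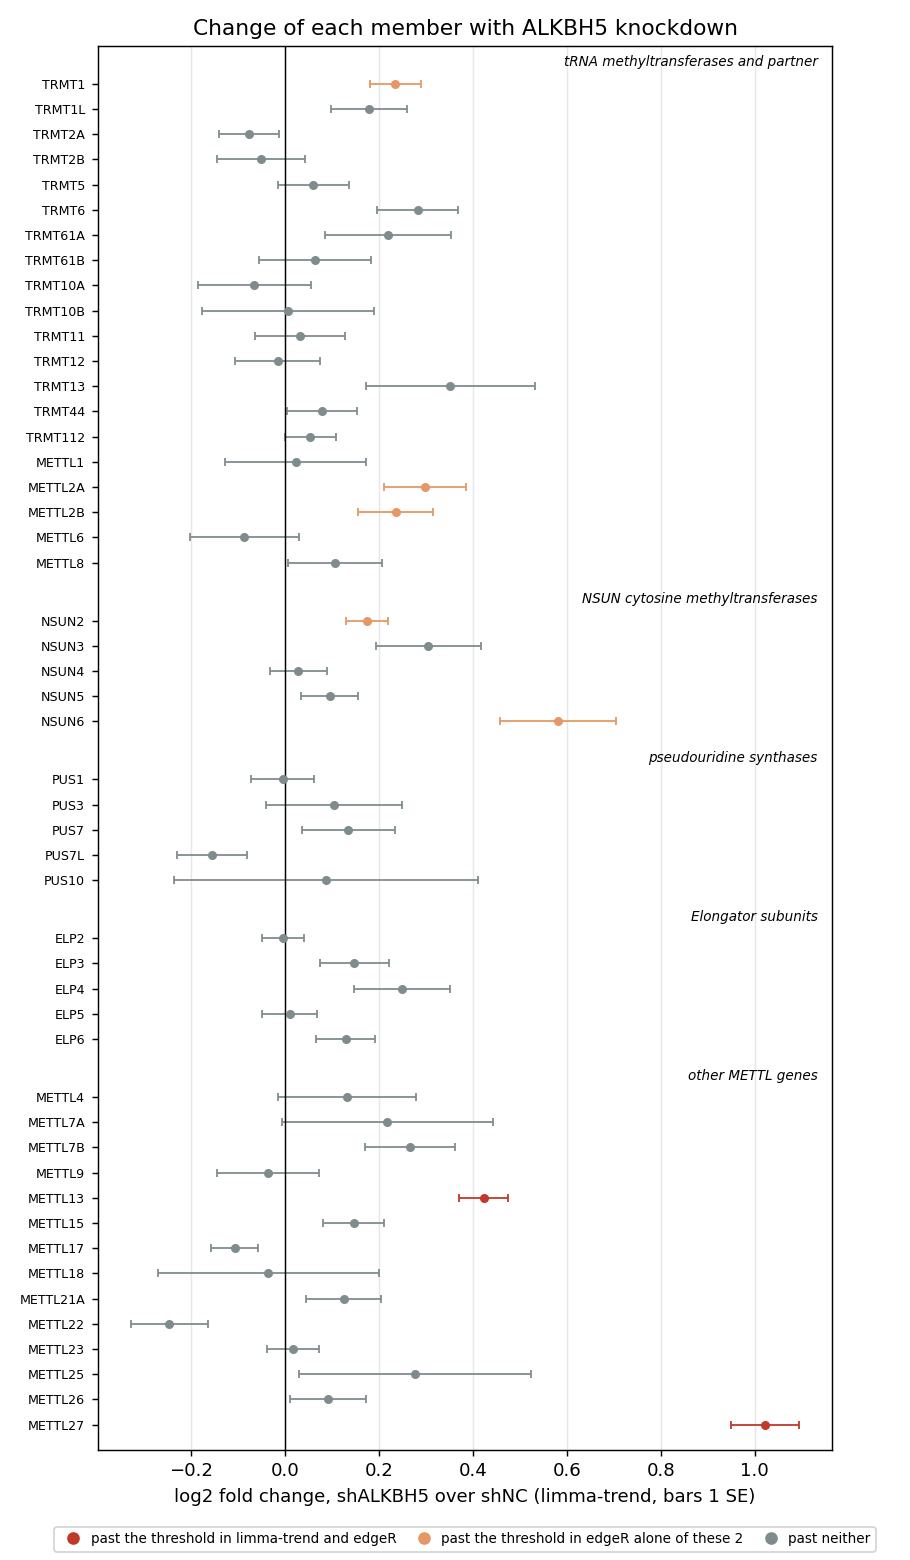
Log2 fold change of shALKBH5 over shNC for the same 49 genes, with bars of 1 SE from limma-trend. Points right of the line at 0 number 37, red points are the 2 genes past the threshold in limma-trend and edgeR, and orange points 5 past it in edgeR alone of these 2 tests.

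METTL27 (ENSG00000165171, chromosome 7, 73834590 to 73842535, minus strand, GRCh38) encodes a protein with a methyltransferase fold. It had 483.3 and 477.4 normalised counts in shALKBH5 libraries, against 232.1 and 240.1 in shNC libraries. The groups stood far apart, with a difference many times the gap between libraries of a group. Its mean was 480 ± 4.2 in shALKBH5 and 236 ± 5.67 in shNC (SD, n = 2 each), and the log2 fold change was 1.02 ± 0.0727, or 2.03-fold (limma-trend adjusted p 0.00559). The edgeR adjusted p was 2.2e-07, and the authors' deposited table gives a log2 fold change of 1.03 with an adjusted p of 2.76e-08. DESeq2 on the recovered reads gave the same log2 fold change and adjusted p, so the deposited values are no separate check. The protein-coding genes tested beside it did not pass in limma-trend. CLDN4, a tight junction claudin 1897 bases away, lay at -0.14 in log2 fold change (limma-trend adjusted p 0.112), and CLDN3, another claudin, had -0.38 (limma-trend adjusted p 0.0595). On the other side TMEM270 had 11.2 and 21 normalised counts in shALKBH5 libraries, against 14.3 and 12.3 in shNC libraries. Of the 75-base windows of METTL27 transcripts, 0% occurred in transcripts of another gene.

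METTL13 (ENSG00000010165, chromosome 1, 171781664 to 171814023, plus strand, GRCh38) methylates eEF1A, the factor that brings aminoacyl-tRNA to the ribosome, and so acts on a protein and not on RNA. It had 1271 and 1215 normalised counts in shALKBH5 libraries, against 907.4 and 946.1 in shNC libraries. Again the groups did not overlap. The means were 1243 ± 39.3 in shALKBH5 and 927 ± 27.4 in shNC (SD, n = 2 each). The log2 fold change was 0.42 ± 0.0524 (limma-trend adjusted p 0.0231, edgeR adjusted p 7.25e-05). Its transcripts also shared 0% of their 75-base windows with other genes. When 1 library was left out, the log2 fold change ran from 0.39 to 0.46 for METTL13 and from 0.998 to 1.05 for METTL27. When either shNC library was dropped, 0 genes of the whole table passed in limma-trend, with 3859 (without library 1) or 4201 (without library 2) at an unadjusted p under 0.05. The limma-trend adjusted p then became 0.235 or 0.224 for METTL27 and 0.274 or 0.238 for METTL13. Without shALKBH5 library 1 or 2 both genes passed in limma-trend, and edgeR passed both with any library left out.

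The RefSeq promoter windows of these 2 genes, 250 bases before to 50 after the annotated start on GRCh38.p14, are shown because they are the genes that passed, and capitals mark the short motifs found in them. In the order METTL27 (chr7:73842467-73842766, minus strand) and METTL13 (chr1:171781410-171781709, plus strand) they read 5′ to 3′:
METTL27: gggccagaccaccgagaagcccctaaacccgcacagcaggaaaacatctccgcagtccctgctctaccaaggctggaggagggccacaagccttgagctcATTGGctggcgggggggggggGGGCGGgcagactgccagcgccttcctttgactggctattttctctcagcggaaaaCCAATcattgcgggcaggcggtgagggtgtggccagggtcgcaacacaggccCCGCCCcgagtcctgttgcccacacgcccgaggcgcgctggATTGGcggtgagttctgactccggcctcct
METTL13: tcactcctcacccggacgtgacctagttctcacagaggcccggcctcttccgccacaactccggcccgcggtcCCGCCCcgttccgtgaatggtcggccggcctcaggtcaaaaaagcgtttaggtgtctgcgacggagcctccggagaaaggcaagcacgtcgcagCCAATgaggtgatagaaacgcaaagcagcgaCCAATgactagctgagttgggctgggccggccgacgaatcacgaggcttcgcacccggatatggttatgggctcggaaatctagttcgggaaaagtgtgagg
The search covered both strands for the E-box CACGTG, the cyclic AMP response element TGACGTCA, the GC box GGGCGG, the CCAAT box CCAAT and the TATA box TATAAA. The matches in the 2 windows shown did not overlap one another. The METTL27 window held 3 CCAAT boxes and 2 GC boxes, and the METTL13 window 2 CCAAT boxes and 1 GC box. Over all 35116 promoter windows of the table, 34.6% held a CCAAT box and 45% a GC box, so both are common. A match is a description of the letters and not of a bound site. Promoter windows were found for 41 of the 52 members, 61 windows in all, of which 37.7% held a CCAAT box and 62.3% a GC box.

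**Figure D3:**
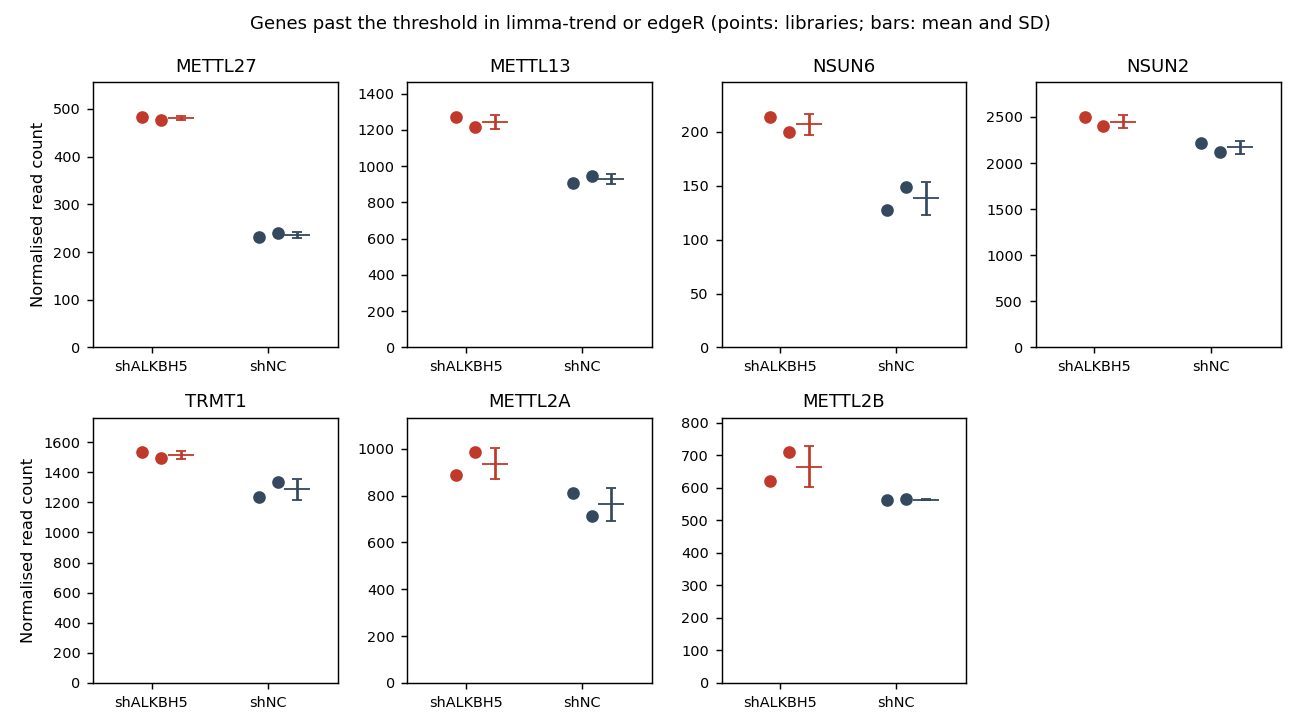
Normalised read counts (vertical, from 0) of 7 genes past the threshold in limma-trend or edgeR, shALKBH5 left and shNC right; points are libraries, and bars the mean and SD. METTL27 and METTL13 passed in both tests. In all 7 genes both shALKBH5 libraries lie above both shNC libraries. The genes shown were chosen because they were called higher, which largely fixes that order in advance.

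Of the 20 tRNA methyltransferase genes, including the partner protein TRMT112, 0 passed in limma-trend, and DESeq2 called 0. At an unadjusted p under 0.05 limma-trend had 4, all higher, or 20%. This stands against 10.7% of all genes and 18.7% of the better-expressed protein-coding genes higher at that p. The edgeR test called 3 higher, or 15%, and 0 lower. Of all genes it kept, whatever their biotype, edgeR called 10.4% higher and 10.4% lower. TRMT1, which dimethylates a guanosine of tRNA, had 1533 and 1495 normalised counts in shALKBH5 libraries, against 1239 and 1336 in shNC libraries. Its groups did not overlap, and the log2 fold change was 0.23 ± 0.0541 (limma-trend adjusted p 0.0837, edgeR adjusted p 0.00727). METTL2A and METTL2B, which form 3-methylcytidine in the tRNA anticodon loop, both lay higher. METTL2A had 888.7 and 984.8 normalised counts in shALKBH5 libraries, against 811.3 and 713.1 in shNC libraries (limma-trend adjusted p 0.135, edgeR adjusted p 0.0108). METTL2B had 621.1 and 708.6 normalised counts in shALKBH5 libraries, against 562.1 and 565 in shNC libraries (limma-trend adjusted p 0.174, edgeR adjusted p 0.0493). These paralogs are close in sequence: 15.8% of the 75-base windows of METTL2A occur in METTL2B and 8.91% of those of METTL2B occur in METTL2A, so how reads were split between these 2 genes is uncertain. In edgeR METTL2A missed the threshold without shALKBH5 library 2 (adjusted p 0.151) or shNC library 2 (0.0705), METTL2B without any library but shALKBH5 library 1 (edgeR adjusted p up to 0.454), and TRMT1 without shALKBH5 library 1 (0.0785).

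TRMT13, a ribose methyltransferase, had the largest log2 fold change of the 20, at 0.35 ± 0.18, but its shALKBH5 libraries differed widely. They held 226 and 160.1 normalised counts, against 146.5 and 151.2 in shNC libraries (limma-trend adjusted p 0.331), so that shALKBH5 library 1 carries the rise. Without that library the log2 fold change was 0.105 (limma-trend adjusted p 0.854), and without shALKBH5 library 2 it was 0.60 (limma-trend adjusted p 0.0135). LRRC39 on the opposite strand shares 13.1% of the TRMT13 exon bases and lay at -0.73 in log2 fold change (limma-trend adjusted p 0.401). Its part in the TRMT13 value was not tested. TRMT1L, a relative of TRMT1, lay at 0.18 (limma-trend adjusted p 0.274). TRMT2A, a uridine methyltransferase, lay at -0.08, and METTL6, the 3-methylcytidine enzyme of serine tRNA, at -0.09. TRMT5, which makes 1-methylguanosine beside the anticodon, had 526.9 and 563.5 normalised counts in shALKBH5 libraries, against 500.3 and 546.6 in shNC libraries (log2 fold change 0.06 ± 0.0756). TRMT10A and TRMT10B, which methylate a purine just before the D arm, had log2 fold changes of -0.07 ± 0.12 and 0.005 ± 0.183. TRMT12, an enzyme of wybutosine synthesis, had a log2 fold change of -0.02 ± 0.0902, with overlapping groups. TRMT44, a uridine ribose methyltransferase, lay at 0.08 ± 0.0745, with 340.5 and 330.3 normalised counts in shALKBH5 libraries, against 322.4 and 312.6 in shNC libraries. The log2 fold changes of the 20 ran from -0.09 to 0.35, with a median of 0.06. TRMT2B, TRMT61B and METTL8, which are among the enzymes of this set that act on mitochondrial tRNA, lay at -0.05, 0.06 and 0.11. Summed over the 20 genes, the normalised counts were 11924 and 12016 in shALKBH5 libraries, against 11282 and 10938 in shNC libraries, without overlap.

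Working pairs were read side by side. METTL1, the catalytic subunit for 7-methylguanosine in tRNA, had 248.3 and 329.3 normalised counts in shALKBH5 libraries, against 293.9 and 269.7 in shNC libraries, so that the groups overlapped (log2 fold change 0.02 ± 0.15, limma-trend adjusted p 0.96). Its scaffold WDR4 had 408.4 and 389.3 normalised counts in shALKBH5 libraries, against 427.1 and 363.7 in shNC libraries, a log2 fold change of 0.02 ± 0.0983. Of METTL1 transcript windows 9.56% also match EEF1AKMT3, an overlapping gene on the opposite strand. TRMT61A, the catalytic subunit for 1-methyladenosine in tRNA, had 420.5 and 391.3 normalised counts in shALKBH5 libraries, against 306.3 and 396.4 in shNC libraries (log2 fold change 0.22 ± 0.135, limma-trend adjusted p 0.413). That value rests on shNC library 1: without it the log2 fold change was 0.033, and without shNC library 2 it was 0.404, where edgeR called the gene (edgeR adjusted p 0.00913). Its partner TRMT6 had 329.3 and 314.3 normalised counts in shALKBH5 libraries, against 274.9 and 254.4 in shNC libraries. The TRMT6 groups did not overlap, and its log2 fold change was 0.28 ± 0.0855 (limma-trend adjusted p 0.144, edgeR adjusted p 0.0776).

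TRMT112, a small protein that several methyltransferases need in order to fold and work, had 3224 and 3124 normalised counts in shALKBH5 libraries, against 3206 and 2916 in shNC libraries. The groups overlapped, with 0.05 ± 0.0551 in log2 fold change (limma-trend adjusted p 0.645). Of its partners, TRMT11, for a guanosine of tRNA, lay at 0.03 ± 0.0958, ALKBH8, for wobble uridines, at -0.0009 ± 0.094, and BUD23, for a guanosine of 18S rRNA, at 0.02 ± 0.0462. THUMPD2, another methyltransferase that works with TRMT112, lay at 0.22 ± 0.104 (limma-trend adjusted p 0.301). It had 304 and 295.2 normalised counts in shALKBH5 libraries, against 278.7 and 238.1 in shNC libraries, and was added after its values were seen. THUMPD3, a relative of THUMPD2, lay at -0.03 ± 0.0563 with overlapping groups, and was also added after its values were seen. The ESRRA gene on the opposite strand shares 17.5% of the TRMT112 exon bases and lay at 0.13 in log2 fold change (limma-trend adjusted p 0.273), and the sources used here do not say if strand was used in counting.

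All 5 NSUN genes tested had log2 fold changes above 0, from 0.03 to 0.58 with a median of 0.175, against 49.1% of all genes above 0. In limma-trend 0 of the 5 passed and 3 were higher at an unadjusted p under 0.05, against 10.7% of all genes and 18.7% of the better-expressed protein-coding genes. The edgeR test called 2 higher and 0 lower, against 10.4% in each direction of all genes it kept, whatever their biotype, and DESeq2 called 0. NSUN6, which methylates the acceptor stem of some tRNAs, had 213.8 and 200.2 normalised counts in shALKBH5 libraries, against 127.5 and 149.2 in shNC libraries. The groups lay apart, and the log2 fold change was 0.58 ± 0.124, or 1.5-fold (limma-trend adjusted p 0.0725, edgeR adjusted p 0.00707, DESeq2 adjusted p 0.0895). Without shNC library 1 its edgeR adjusted p was 0.0562. In limma-trend the NSUN6 log2 fold change was 0.534 or 0.629 without shALKBH5 library 1 or 2, and 0.469 or 0.694 without shNC library 1 or 2. NSUN2, the broad tRNA cytosine methyltransferase, had 2500 and 2398 normalised counts in shALKBH5 libraries, against 2216 and 2122 in shNC libraries, with 0.175 ± 0.0447 in log2 fold change (limma-trend adjusted p 0.103, edgeR adjusted p 0.0154). In edgeR NSUN2 missed the threshold without shALKBH5 library 1 (adjusted p 0.182) or shNC library 2 (0.0594).

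NSUN3, which acts on mitochondrial methionine tRNA, had 157.1 and 167.1 normalised counts in shALKBH5 libraries, against 131.3 and 130.8 in shNC libraries. Its groups did not overlap (log2 fold change 0.30 ± 0.112, limma-trend adjusted p 0.201). DHFR2, which shares 3.96% of the NSUN3 exon bases on the opposite strand, rose by 0.97 (limma-trend adjusted p 0.0474), and its part in the NSUN3 value was not tested. NSUN4, of the mitochondrial ribosome, lay at 0.03 ± 0.0607. NSUN5, of 28S rRNA, lay at 0.09 ± 0.0611, and 18.1% of its transcript windows occur in other genes, with 13.6% in its pseudogene NSUN5P2 and 12.2% in POM121. NSUN7 was not tested: it had 3.04 normalised counts in shALKBH5 library 1 and 0 in the other libraries. Summed over the 6 NSUN genes, the normalised counts were 4951 and 4699 in shALKBH5 libraries, against 4333 and 4348 in shNC libraries.

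Of the 5 pseudouridine synthases, all tested, 0 passed in limma-trend, edgeR or DESeq2, and 0 had an unadjusted p under 0.05 in limma-trend. PUS7, which acts on tRNA and mRNA, had 823.8 and 975.8 normalised counts in shALKBH5 libraries, against 777.1 and 858.2 in shNC libraries (log2 fold change 0.13 ± 0.0984). Its relative PUS7L had 478.3 and 509.4 normalised counts in shALKBH5 libraries, against 526.9 and 574.2 in shNC libraries. This was 1 of the 3 members with both shALKBH5 libraries below both shNC libraries (log2 fold change -0.16 ± 0.0749, limma-trend adjusted p 0.301). PUS1, of cytosolic and mitochondrial tRNA, lay at -0.006 ± 0.0677, and PUS3, of the tRNA anticodon arm, at 0.10 ± 0.145. PUS10 was the least even, with 72.96 and 138.1 normalised counts in shALKBH5 libraries, against 106.5 and 83.78 in shNC libraries. Summed over the 5 genes, the normalised counts were 2567 and 2784 in shALKBH5 libraries, against 2521 and 2742 in shNC libraries, so the groups overlapped.

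Of the Elongator subunits ELP2, ELP3, ELP4, ELP5 and ELP6, 0 passed in limma-trend, edgeR or DESeq2, and 0 had an unadjusted p under 0.05 in limma-trend. ELP2, a WD-repeat subunit, had 1257 and 1277 normalised counts in shALKBH5 libraries, against 1289 and 1256 in shNC libraries, a log2 fold change of -0.006 ± 0.0448. ELP3, the catalytic subunit, had 1019 and 969.8 normalised counts in shALKBH5 libraries, against 844.6 and 954.3 in shNC libraries (0.15 ± 0.0742, limma-trend adjusted p 0.323). Without shNC library 1 its log2 fold change was 0.059, and without shNC library 2 it was 0.235, where the edgeR adjusted p was 0.0306.

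ELP4, ELP5 and ELP6 form the accessory ring. ELP4 had 273.6 and 266.2 normalised counts in shALKBH5 libraries, against 212.1 and 243.2 in shNC libraries (log2 fold change 0.25 ± 0.102, limma-trend adjusted p 0.243). ELP5 lay at 0.009 ± 0.0581 and ELP6 at 0.13 ± 0.0629. The gene model of ELP4 overlaps PAX6 on the opposite strand over 19.2% of its exon bases, and PAX6 lay at -0.60 in log2 fold change (limma-trend adjusted p 0.126).

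Besides METTL27 and METTL13, the other METTL genes tested did not pass in limma-trend, 12 in all. At an unadjusted p under 0.05 in limma-trend, 10.7% of all genes were higher and 10.7% lower. Of the better-expressed protein-coding genes these shares were 18.7% and 17.9%. Among the 12, 1 was lower and 1 higher at that p. The lower was METTL22, a protein lysine methyltransferase, with 364.8 and 328.3 normalised counts in shALKBH5 libraries, against 410.9 and 410.7 in shNC libraries. The groups did not overlap (log2 fold change -0.25 ± 0.0816, limma-trend adjusted p 0.167, edgeR adjusted p 0.0726). METTL17, a factor of mitochondrial ribosome assembly, had 942.4 and 912.8 normalised counts in shALKBH5 libraries, against 992 and 1007 in shNC libraries (-0.11 ± 0.0493, limma-trend adjusted p 0.275). METTL15, which methylates a cytidine of mitochondrial 12S rRNA, had 531 and 505.4 normalised counts in shALKBH5 libraries, against 472.7 and 463.8 in shNC libraries (0.15 ± 0.0644, limma-trend adjusted p 0.266). The higher was METTL7B, at 0.27 ± 0.0954 in log2 fold change, with a limma-trend unadjusted p of 0.0349 and adjusted p of 0.191. It shares 44 exon bases with ITGA7 on the opposite strand, whose log2 fold change was -0.71 (limma-trend adjusted p 0.00754). The other protein methyltransferases among the 12 did not pass either. METTL9, a histidine methyltransferase, had 764 and 671.6 normalised counts in shALKBH5 libraries, against 671.5 and 804.1 in shNC libraries, and these overlap. METTL18, which methylates a ribosomal protein, lay at -0.04 ± 0.235, METTL21A, of heat shock proteins, at 0.12 ± 0.0791 and METTL23, of histones, at 0.02 ± 0.0558. For METTL21A and METTL23 both shALKBH5 libraries lay above both shNC libraries, and for METTL18 the groups overlapped. METTL4, which methylates a spliceosomal RNA, had 207.7 and 166.1 normalised counts in shALKBH5 libraries, against 159.8 and 179.8 in shNC libraries (log2 fold change 0.13 ± 0.147). METTL7A lay at 0.22 ± 0.225, METTL25 at 0.28 ± 0.247 and METTL26 at 0.09 ± 0.0811, each with a standard error close to the difference. METTL21C was not tested, with 2.85 normalised counts in shNC library 1 and 0 elsewhere, both shALKBH5 libraries included.

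**Figure D4:**
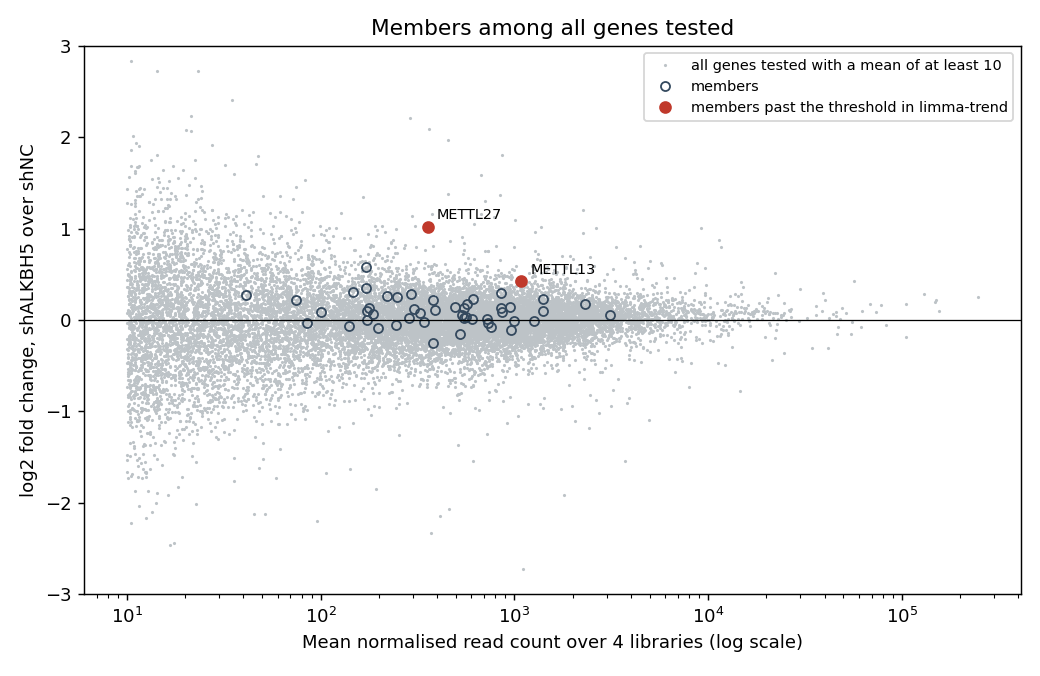
Log2 fold change of shALKBH5 over shNC (vertical) against mean normalised read count over 4 libraries (horizontal, log scale) for 16159 genes with a mean of at least 10, with 5 genes beyond the vertical range. Open circles are 49 of the genes of the family, which lie within the cloud, and the red points METTL27 and METTL13 lie at 1.02 and 0.42.

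Levels between genes were compared as normalised counts per kilobase of gene model. TRMT112 was the most abundant, at 1953 per kilobase in shALKBH5 and 1884 in shNC. METTL26 followed at 487 in shALKBH5 and 457 in shNC. NSUN2, TRMT1 and NSUN5 lay close together, at 445, 450 and 425 in shALKBH5, against 394, 383 and 398 in shNC, and their order differed between the groups. The lowest tested genes were ELP4, at 9.88 in shALKBH5 and 8.34 in shNC, METTL25, at 12.3 and 10.3, and PUS10, at 13.8 and 12.4. The ELP4 model is 27306 bases long, which lowers its value per kilobase. METTL27 stood at 327 per kilobase in shALKBH5, against 161 in shNC. The median over the 50 genes was 95.7 per kilobase over all libraries.

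A list of 71 other tRNA and rRNA modification genes, not reached by the name rule, was read beside the members. All 71 were tested: 1 rose, 0 fell and 70 did not pass in limma-trend. The share that rose was 1.41%, against 1.98% of all genes and 4.19% of the better-expressed protein-coding genes. At an unadjusted p under 0.05 limma-trend had 20 higher and 3 lower. The share higher was 28.2%, against 10.7% of all genes and 18.7% of the better-expressed protein-coding genes. The 3 lower stand against 10.7% and 17.9%. The gene that rose was MRM1, a ribose methyltransferase of mitochondrial 16S rRNA, with 322.2 and 293.2 normalised counts in shALKBH5 libraries, against 176.9 and 175.7 in shNC libraries. The groups lay far apart, at a log2 fold change of 0.80 ± 0.0943, or 1.74-fold (limma-trend adjusted p 0.0214, edgeR adjusted p 8.42e-05). Without shNC library 1 or 2 its limma-trend adjusted p was 0.274 or 0.242. MRM2 and MRM3, of the same rRNA, lay at 0.29 ± 0.0585 and 0.26 ± 0.0688 (limma-trend adjusted p 0.0632 and 0.113), and were picked out after their values were seen. In edgeR 12 of the list were higher, or 16.9%, against 10.4% of all genes it kept, whatever their biotype. Another 2 were lower, against 10.4% of its genes called lower. These were DKC1, the pseudouridine synthase of box H/ACA particles, at -0.17 in log2 fold change, and TRMU, a mitochondrial tRNA thiolase, at -0.19. DESeq2 called 4 of the 71 higher, MRM1, NHP2, RPUSD1 and URM1, and 0 lower, against 6.38% of its genes called higher and 5.56% called lower. The median log2 fold change of the list was 0.05, and 46 of the 71 (64.8%) lay above 0, against 49.1% of all genes and 51.1% of the better-expressed protein-coding genes.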

How the data were processed

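Analysed were 4 RNA-seq libraries of HCT116, 2 shALKBH5 and 2 shNC; per the labels' protocols the kit was for mRNA. Aligner, counter and genome build: not given in the sources used here. All 28391 genes had the same position in GENCODE release 29 on GRCh38, so that build is used. For each library the authors deposited a signal, namely counts scaled by a size factor. The authors' deposited table also holds a log2 fold change, a p-value and an adjusted p-value per gene, per the file headers. Every value was a whole multiple of its library's step within 0.001 reads (100%), so whole reads were recovered, 16398604 to 17493141 per library, which limits low genes. For shALKBH5 library 2 the step was 1.00084, close to 1. Within a group, libraries varied beyond counting noise (chi-square per gene 2.21 for shALKBH5 and 2.85 for shNC).

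Values were tested as log2(value + 1) with limma-trend 3.58.1 (R 4.3.3, two-sided, Benjamini-Hochberg over 25887 genes with at least 1 in at least 2 libraries, prior degrees of freedom 3.48). Alternatives were edgeR 4.0.16, DESeq2 1.42.0 and limma-voom on recovered reads, other pseudocounts, filters and scalings, no trend, each library left out, and the replicate number as a block. The tests were checked on simulated data. Members, lists and tests were chosen with earlier results of these data known. Named genes were those past the threshold, subunits of fixed complexes, the 5 largest rises and falls among genes averaging 50 or more, the 3 highest and lowest levels per length, and genes called differently by edgeR or DESeq2; further members are given by level or fold change and were chosen for their role. Shared sequence was counted as 75-base windows of GENCODE transcripts found in another gene, on either strand. The read length is not given in the sources used here. The values of 1 gene are not reported here, though it is counted in the totals.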

Additional observations from a re-analysis of the deposited data

How the results depend on the processing

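Over all genes, the counts higher and lower in shALKBH5 were 513 and 487 in limma-trend. They were 1712 and 1716 in edgeR, 793 and 691 in DESeq2, 1709 and 1684 in limma-voom, 1789 and 1698 over genes averaging 50 or more, 787 and 1272 with equal totals, and 0 and 0 without the mean-variance trend (3903 genes at an unadjusted p under 0.05). For the 52 members the counts higher were 8 in edgeR, 7 in limma-voom, 8 over genes averaging 50 or more, 4 with equal totals and 0 without the trend, where 4 had an unadjusted p under 0.05, against 2 in limma-trend. The count of members lower was 0 under every alternative run. For the list of 71 other genes, 1 higher and 0 lower in limma-trend became 12 and 2 in edgeR, 4 and 0 in DESeq2, 13 and 2 in limma-voom, 2 and 0 with a pseudocount of 5, 16 and 2 over genes averaging 50 or more, 4 and 2 with equal totals, and 0 and 0 without the trend. With 1 library left out, in limma-trend or in edgeR (the edgeR fits added after the data were seen), the counts ran from 0 to 1778 genes higher, 0 to 1655 lower, 0 to 7 members higher, and 0 to 13 higher and 0 to 3 lower in the list. The lone library of a group was then assumed to vary like the other group.

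Libraries with the same replicate number in their titles showed no shared deviation, with a correlation of -0.0275 over 12540 genes. This cannot show whether the libraries were prepared in pairs. With the number as a block, limma-trend gave 56 higher and 55 lower genes, 1 member higher (METTL27) and 0 in the list; METTL13 had an adjusted p of 0.0874 and MRM1 of 0.0754. With the block in edgeR the counts were 1623 and 1650 genes, 7 members higher, and 12 higher and 2 lower in the list.

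ALKBH5 kept its direction throughout. Its log2 fold change of -2.72 no longer passed without the trend (-2.72, adjusted p 0.0716), and ran from -2.83 to -2.62 with 1 library left out. Without shNC library 1 or 2 it did not pass in limma-trend (adjusted p 0.216 and 0.223), while edgeR passed it with any library left out. Without the trend METTL27, METTL13 and MRM1 had adjusted p of 0.0804, 0.233 and 0.158.

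Genes near no change turned sign. With equal totals BUD23 lay at -0.017, ELP5 at -0.024, METTL1 at -0.011, TRMT11 at -0.002 and WDR4 at -0.016, and ALKBH8 lay at 0.002 in DESeq2 and 0.003 with TMM factors. With 1 library left out, in limma-trend or edgeR, ALKBH8 ran from -0.092 to 0.088, BUD23 from -0.036 to 0.067, ELP2 from -0.027 to 0.013, ELP5 from -0.030 to 0.047, METTL1 from -0.187 to 0.225, METTL6 from -0.20 to 0.021, PUS10 from -0.389 to 0.543, TRMT11 from -0.098 to 0.158, TRMT112 from -0.018 to 0.122 and WDR4 from -0.102 to 0.132. The causes of these shifts were not tested. Depth limits METTL25, NSUN7 and METTL21C, whose reads are few.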

Other observations

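Relatives of the family that are not protein coding were outside the members. There were 7 among the genes measured, 6 were tested, and 0 passed in limma-trend. Over all genes, 10.7% were higher and 10.7% lower at an unadjusted p under 0.05 in limma-trend, and 1 of the 6 was lower at that p. This was NSUN5P1, a transcribed pseudogene of NSUN5 on chromosome 7, with 761 and 634.5 normalised counts in shALKBH5 libraries, against 877 and 803 in shNC libraries (log2 fold change -0.27 ± 0.102, limma-trend adjusted p 0.206). NSUN5 itself lay at 0.09, and how reads were divided between the gene and its copies was not tested. NSUN5P2 had 41.5 and 35 normalised counts in shALKBH5 libraries, against 41.9 and 26.6 in shNC libraries.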
